A study of Rattus norvegicus with 18 samples.

Results

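Tetraspanins are small membrane proteins that cross the bilayer 4 times and gather integrins, immunoglobulin-type proteins and each other into clusters. Oligodendrocytes carry several of them, and Tspan2 and Cd9 have long been known as components of myelin. Cd63 is the form of late endosomes, lysosomes and secreted vesicles, Cd81 is the closest relative of Cd9, Cd82 is also called Kai1, and Cd151 binds laminin-binding integrins. These 6 genes, Tspan2, Cd9, Cd63, Cd81, Cd82 and Cd151, are described here in cells sorted from the neonatal rat brain. They were taken as every probe set whose platform annotation gave 1 of these symbols and no other, which found 7 probe sets for the 6 genes, of 13811 genes named in this way on both array types. All 7 lie among the 15923 of array A, so each value of a member below comes from array A, and all 7 passed the filter on low ratios.

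The cells came from whole brain dissociates of male rat pups at postnatal day 7, and each replicate was a litter of 10 pups. A2B5+ cells (5 replicates) were sorted with an antibody against gangliosides of glial progenitors and some neurons, and O4+ cells (4 replicates) with an antibody against sulfatide and related lipids of late progenitors and oligodendrocytes. No strain, genotype or treatment is named in the labels, and both populations are pools of sorted cells from several animals. Each replicate was put on 2 Affymetrix array types, A and B. The deposited values are ratios that place each probe set's median array near 1, so arrays can be compared for a probe set but the levels of different genes cannot be ranked. Tested probe sets had a median log2 difference (O4+ minus A2B5+) of 0.26 on array A, which includes a shift of 0.17 between the medians of O4+ and A2B5+ arrays. The O4 label was checked against a list of markers: all 16 probe sets of mature oligodendrocyte genes were higher in O4+ cells, with a median difference of 4.79. On array A 32.5% of all tested probe sets were higher. The list includes a Cldn11 probe set that passed the filter only through its O4+ ratios.

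Of the 7 probe sets, both of Tspan2 and the 1 of Cd9 rose in O4+ cells (limma, Benjamini-Hochberg adjusted p under 0.05 over all 13098 probe sets tested), and 0 were lower, with 1 (Cd82) lower at an unadjusted p under 0.05. On array A 32.5% of all tested probe sets were higher and 14.7% lower, so 3 of 7 higher is near the share of the array as a whole. After each array was centred on its median, 18.6% were higher and 17.9% lower, and Cd82 became 1 lower call. The members' median difference was 0.13, below the 0.26 of all tested probe sets. The members thus held a very large rise, a moderate rise, a possible fall, and 3 genes with small differences. Fewer cells of a type and less RNA per cell cannot be told apart in such sorted pools. All 7 probe sets had 5 of 9 arrays at a ratio of 1 or above, where the filter asked for 4. For Tspan2 and Cd9 these were the 4 O4+ arrays and 1 A2B5+ array at exactly 1. Passing the filter is therefore no separate support for their rises. Without the filter the same 3 probe sets were called higher.

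**Figure D1:**
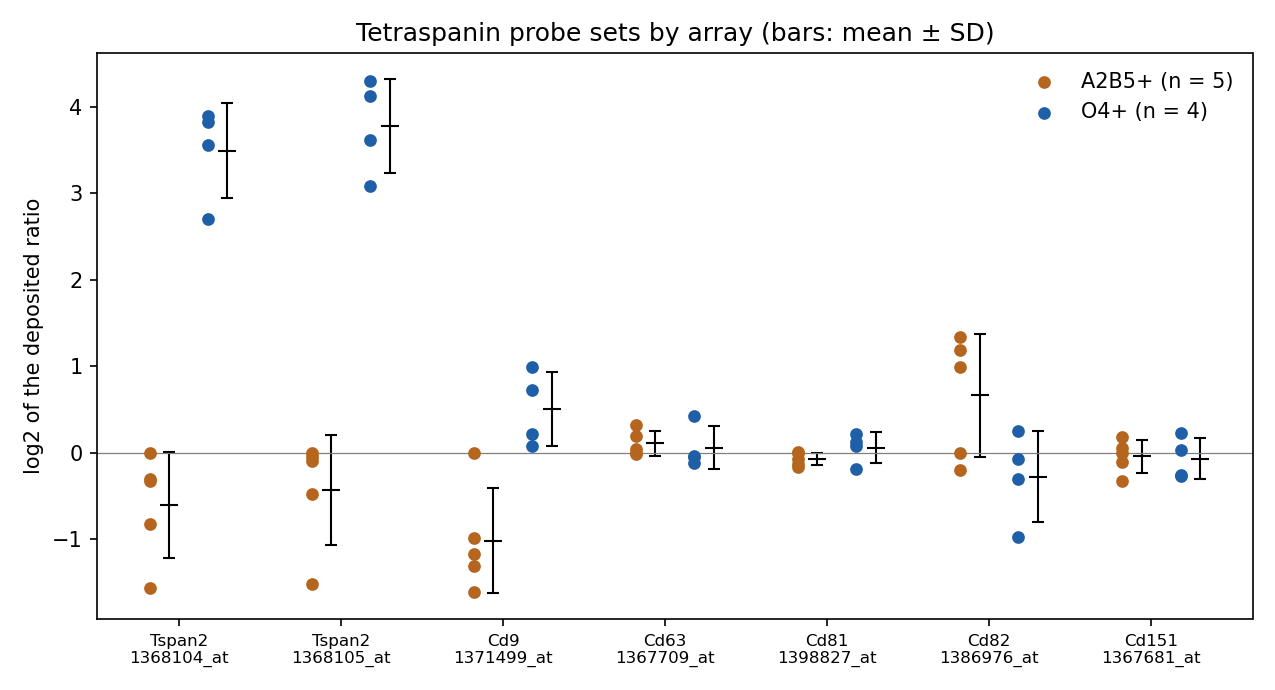
Log2 of the deposited ratio (vertical axis) on each array A sample for the 7 member probe sets, with A2B5+ (n = 5) in brown, O4+ (n = 4) in blue, and black bars for mean ± SD. Both Tspan2 probe sets and Cd9 separate the populations, Cd82 splits the A2B5+ arrays into 3 high and 2 low, and Cd63, Cd81 and Cd151 overlap near 0.

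Tspan2 showed by far the widest separation of the 6 genes. The promoter regions of both genes that rose, and of Cd81 as the near relative of Cd9 that was not called, are shown so that the sequence ahead of each start can be set beside its response. Each runs 5′ to 3′ from 250 bases before to 50 after the gene's start (RefSeq, build GRCr8): Tspan2 at chr2:192866030-192866329 on the plus strand, Cd9 at chr4:159975309-159975608 on the minus strand, and Cd81 at chr1:207665047-207665346 on the plus strand. Capitals mark the GC box GGGCGG on either strand and the E-box CAGCTG.
Tspan2: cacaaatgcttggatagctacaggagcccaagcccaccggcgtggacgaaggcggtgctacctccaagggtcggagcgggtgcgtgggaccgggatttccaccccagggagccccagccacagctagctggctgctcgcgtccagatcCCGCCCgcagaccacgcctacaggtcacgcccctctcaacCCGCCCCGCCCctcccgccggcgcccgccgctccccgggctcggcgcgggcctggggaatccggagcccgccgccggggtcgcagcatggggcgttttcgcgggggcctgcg
Cd9: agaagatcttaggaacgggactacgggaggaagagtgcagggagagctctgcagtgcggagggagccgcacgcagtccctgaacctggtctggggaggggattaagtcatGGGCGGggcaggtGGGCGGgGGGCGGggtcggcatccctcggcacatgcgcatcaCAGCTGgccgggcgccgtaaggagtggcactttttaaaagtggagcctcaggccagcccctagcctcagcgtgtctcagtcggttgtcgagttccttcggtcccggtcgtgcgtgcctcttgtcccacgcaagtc
Cd81: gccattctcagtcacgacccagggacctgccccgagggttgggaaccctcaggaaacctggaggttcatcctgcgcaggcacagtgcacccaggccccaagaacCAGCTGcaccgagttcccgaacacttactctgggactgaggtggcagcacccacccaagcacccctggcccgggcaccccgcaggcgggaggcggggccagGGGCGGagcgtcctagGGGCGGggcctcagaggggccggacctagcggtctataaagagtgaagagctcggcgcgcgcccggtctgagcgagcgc
Promoters of 5 of the 6 members were found in the table by symbol. The letters GGGCGG, searched on both strands and with overlaps allowed, occurred 3 times each in Tspan2 and Cd9 and 2 times each in Cd63, Cd81 and Cd151, against at least 1 match in 33.1% of all 33469 promoters. The palindrome CAGCTG, an E-box, occurred 1 time each in Cd9, Cd63 and Cd81, and in 15.1% of all promoters. The Sox core ACAAAG and the Myrf core CTGGCAC, both searched on either strand, matched in 18.8% and 4.75% of all promoters and had no match in these 5 windows. The GC content of the windows was 73.3% in Tspan2, 64% in Cd9, 75% in Cd63, 68.7% in Cd81 and 61.7% in Cd151, against a median of 51.7%. GC boxes were therefore found in the members that rose and in those that were not called alike, and the letters are a description of the windows only.

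For Tspan2, a tetraspanin enriched in the oligodendrocyte lineage, probe set 1368104_at had ratios of 1, 0.565, 0.797, 0.808 and 0.339 in A2B5+ replicates 1 to 5. In O4+ replicates 1 to 4 its ratios were 14.87, 6.532, 11.82 and 14.17. The lowest O4+ array thus stood far above the highest A2B5+ array. The difference was 4.10 ± 0.34 (log2, SE of the fit; n = 5 and 4), which is 17.2-fold (adjusted p = 1.1e-05 by limma). Probe set 1368105_at read 0.932, 0.717, 0.967, 1 and 0.349 in A2B5+ cells, and 19.69, 8.477, 12.25 and 17.43 in O4+ cells. Its difference of 4.21 ± 0.35 (18.5-fold, adjusted p = 1.1e-05 by limma) placed it 48th from the top of 13098 tested probe sets, and the other stood 52nd. Both probe sets put A2B5+ replicate 5 lowest and O4+ replicate 2 lowest within their groups, and on no array were they more than 0.41 apart (log2). Within O4+ cells, replicates 1 and 4 were highest for Tspan2 on both probe sets. The same 2 arrays had the highest mean of 11 mature oligodendrocyte genes, 4.38 and 4.33 (log2 ratio, arrays centred), against 3.58 and 3.60 in replicates 2 and 3. On array B, where 2 other genes of that list were tested, the order was the opposite, with 4.34 and 4.63 in replicates 1 and 4 against 5.56 and 5.63 in replicates 2 and 3. Replicates this few allow no test of either order. Quantile normalization, an alternative that forces the same distribution on all arrays, gave differences of 3.19 and 3.11, still called.

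Cd9, which clusters with integrins and immunoglobulin-type partners in the myelin membrane, rose by less than Tspan2. Its ratios in A2B5+ replicates 1 to 5 were 1, 0.328, 0.402, 0.504 and 0.444. In O4+ replicates 1 to 4 they were 1.166, 1.053, 1.65 and 1.994. Every O4+ array lay above every A2B5+ array, as for 33.3% of all probe sets tested on array A, but A2B5+ replicate 1 came close to O4+ replicate 2. The difference was 1.52 ± 0.32 (2.87-fold, adjusted p = 0.0035 by limma), or 1.35 with arrays centred (adjusted p = 0.0094). The array that was highest for Cd9 among O4+ cells was replicate 4, whereas replicate 1, highest for Tspan2 on both probe sets, was the third highest for Cd9.

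Cd63, the tetraspanin of late endosomes and exosomes, showed no called difference. Its ratios were 0.991, 1.031, 1, 1.144 and 1.246 in A2B5+ cells, and 0.975, 1.343, 0.924 and 0.964 in O4+ cells. O4+ replicate 2 alone stood above the other arrays of its group. The difference was -0.05 ± 0.15, with a 95% interval of -0.39 to 0.28 (adjusted p = 0.79 by limma). Without O4+ replicate 2 it was -0.18 (adjusted p = 0.26).

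Cd81, which shares with Cd9 the partners Igsf8 and Ptgfrn, ranged from 0.895 to 1.002 in A2B5+ cells and read 1.166, 0.878, 1.054 and 1.092 in O4+ cells. Of the O4+ arrays 3 lay above all A2B5+ arrays and O4+ replicate 2 lay below all of them. The difference was 0.13 ± 0.13, with a 95% interval of -0.15 to 0.41 (adjusted p = 0.40 by limma), and centring turned its sign to -0.04. Cd151, the partner of laminin-binding integrins, read 1.13, 1, 0.931, 1.038 and 0.794 in A2B5+ cells, and 1.019, 1.173, 0.834 and 0.832 in O4+ cells. The arrays of the populations overlapped, and its difference was -0.03 ± 0.16, with an interval of -0.38 to 0.32 (adjusted p = 0.90 by limma). For these 3 genes the intervals exclude a change as large as that of Cd9, but a smaller change in either direction remains within them.

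Cd82, known outside the brain as a suppressor of metastasis, had the lowest difference of the 6 genes, but it did not pass the threshold. Its ratios were 1.981, 2.284, 1, 0.874 and 2.529 in A2B5+ replicates 1 to 5. In O4+ replicates 1 to 4 they were 0.952, 0.808, 0.508 and 1.193. A2B5+ replicates 1, 2 and 5 were above every O4+ array, while replicates 3 and 4 lay within the O4+ range. The difference was -0.94 ± 0.37, with a 95% interval of -1.75 to -0.13 (adjusted p = 0.055 by limma). It passed the threshold with arrays centred (-1.11, adjusted p = 0.044), without A2B5+ replicate 3 (-1.11, adjusted p = 0.040), without A2B5+ replicate 4 (-1.15, adjusted p = 0.025) and without O4+ replicate 4 (-1.12, adjusted p = 0.049). It shrank to -0.43 with array weights (adjusted p = 0.24).

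The other cells that these sorts could hold differed between the populations as well. On array A, 10 of 12 probe sets of microglia and macrophage markers, 7 of 12 of astrocyte and radial glia markers, 6 of 10 of endothelial and mural markers and 6 of 11 of neuron markers were lower in O4+ cells. Of all tested probe sets on array A, 14.7% were lower and 32.5% higher (17.9% and 18.6% after centring). Neuron markers moved both ways: 2 of the 11 were higher (1 after centring), those of the neurofilaments Nefl (0.78) and Nefm (1.80), and so were both probe sets of Elavl3, an RNA-binding protein of neurons, on array B (1.24 and 1.48). The mean of the 11 microglia genes (log2 ratio, arrays centred) ran from 0.08 to 0.86 in A2B5+ arrays and from -1.39 to -0.10 in O4+ arrays. That of the 8 endothelial and mural genes ran from 0.15 to 0.61 and from -2.18 to -0.97. Within A2B5+ cells some lists ran opposite to Cd82 and others followed it in part. The 8 neuron markers had means of 1.48 and 1.22 in replicates 3 and 4, where Cd82 was low, against 0.64, 0.52 and -0.29 in replicates 1, 2 and 5. The 8 astrocyte and radial glia genes had means of 1.08 and 0.84 in replicates 3 and 4, and of 0.62, 0.31 and -0.05 in the other A2B5+ arrays. The endothelial and mural list was highest in replicates 2 and 1 (0.61 and 0.42), followed by 0.26, 0.21 and 0.15 in replicates 4, 5 and 3. The microglia list was highest in replicates 2 and 5 (0.86 and 0.65), followed by 0.51, 0.20 and 0.08 in replicates 4, 3 and 1. The 5 progenitor genes had means of 0.95 and 0.98 in replicates 3 and 4, and of 0.98, 0.17 and -0.46 in replicates 1, 2 and 5. Replicate 1, where Cd82 was high, thus matched replicates 3 and 4 for that list. Of the progenitor markers on array A, Cspg4, Cspg5, Pdgfra and Ptprz1 were lower on all 5 of their probe sets, and Vcan, a matrix proteoglycan, was higher on all 4 of its own (3 after centring). The progenitor markers on array B went up: C1ql1 was higher by 2.75 (adjusted p = 0.016 by limma). Lhfpl3 differed by 1.60 and was not called (adjusted p = 0.082 by limma). Progenitor markers thus moved both ways. The part of these other cells in the values of Cd82, Cd9 and the remaining members was not tested.

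**Figure D2:**
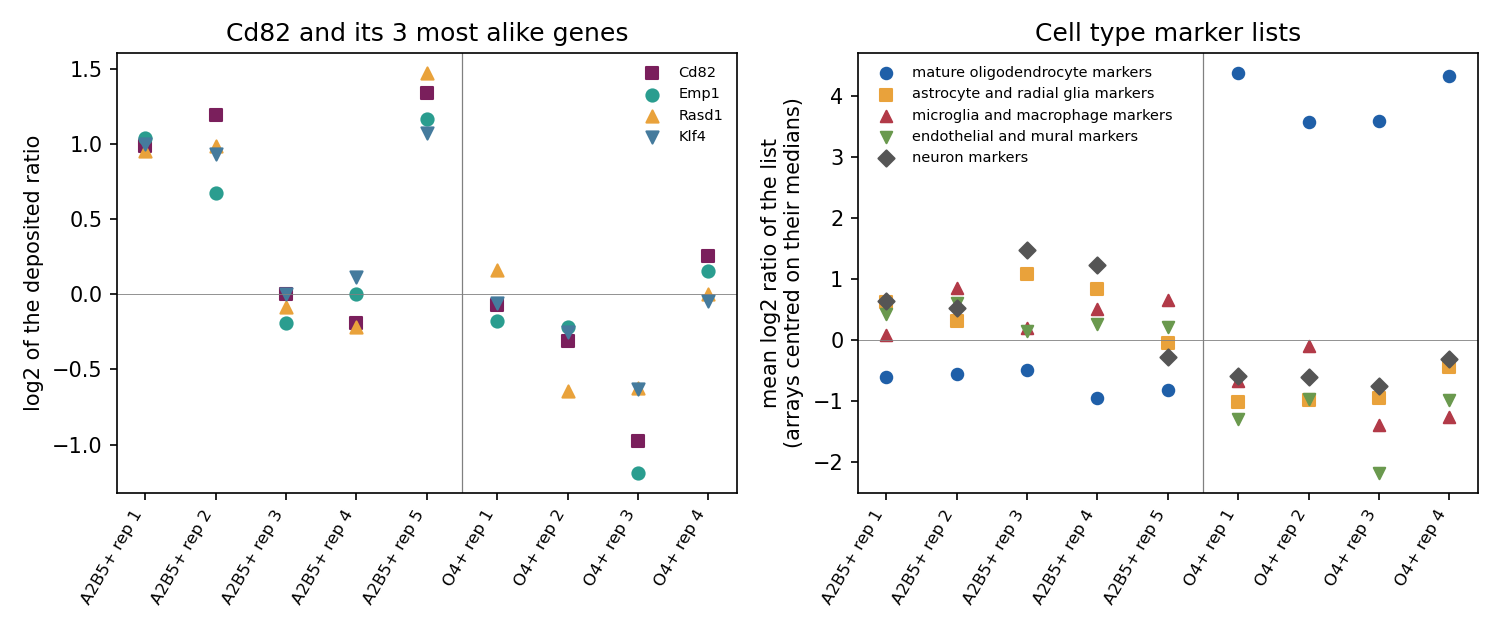
Left, log2 ratios of Cd82 and the 3 genes with the most alike pattern on each array A sample (horizontal axis). Right, the mean log2 ratio of 5 cell type marker lists on the same arrays, each centred on its median. Cd82 and its 3 companions, chosen for that likeness, are high in A2B5+ replicates 1, 2 and 5 and low in replicates 3 and 4. In replicates 3 and 4 the neuron list is at its highest, 1.48 and 1.22.

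The members also differed from each other in their response. For each of the 15 pairs of genes the log2 ratio of one over the other was compared between populations on the same arrays. A shift common to all genes of an array cancels in this ratio, but a wider spread of an array does not. Log2 ratios spread more on O4+ arrays (SD 0.76 to 0.84) than on A2B5+ arrays (SD 0.43 to 0.54). The test was a two-sided exact permutation over all ways to split the 9 arrays into 5 and 4. Adjusted over the 15 pairs by Benjamini-Hochberg, 9 pairs differed: Tspan2 from each of the other 5, and Cd9 from each of the remaining 4. Tspan2 exceeded Cd9 by 2.64 (O4+ minus A2B5+, log2). The ratio of Tspan2 over Cd9 in A2B5+ cells averaged 0.50 ± 0.67 (SD, n = 5) on the log2 scale. In O4+ cells it averaged 3.14 ± 0.50 (SD, n = 4), with no overlap (exact permutation p = 0.0079, which is the lowest value this design can reach, and adjusted p = 0.020). With quantile normalization the excess of Tspan2 over Cd9 shrank to 1.52, still called (exact permutation adjusted p = 0.034). Cd9 exceeded its relative Cd81 by 1.39 (exact permutation p = 0.024, adjusted p = 0.040). Cd82 stood below Cd81 by 1.07 and below Cd63 by 0.89, which did not pass (exact permutation adjusted p = 0.11 for each). Cd63, Cd81 and Cd151 were within 0.18 of each other, but without O4+ replicate 2 Cd63 stood below Cd81 by a called difference of -0.39 (exact permutation adjusted p = 0.030). The calls of this test needed all replicates in several cases: without A2B5+ replicate 2, 3, 4 or 5 the count of called pairs was 0 in each case, while the differences of Tspan2 to the other members stayed between 2.42 and 5.40. Without O4+ replicate 1, 3 or 4 the pair of Cd9 and Cd63 was lost, and without O4+ replicate 2, 3 or 4 that of Cd9 and Cd81. With 4 arrays a group the smallest p is 0.029, and it passes the adjustment only if at least 9 pairs reach it.

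**Figure D3:**
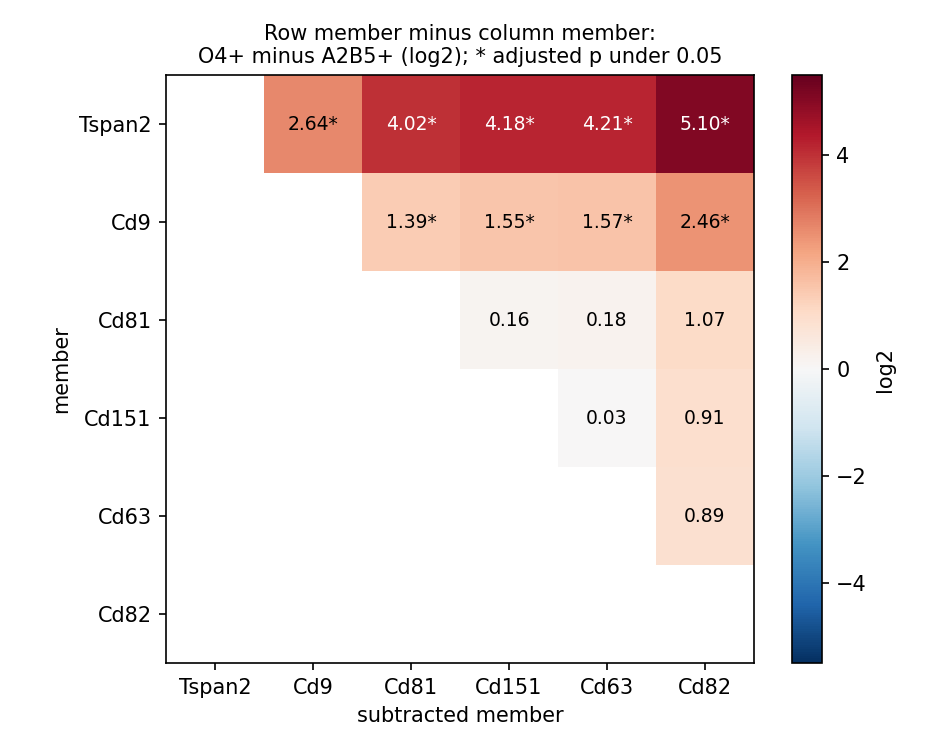
The O4+ minus A2B5+ difference of the row gene less that of the column gene (log2, colour scale) for the 15 pairs of members, with stars at an adjusted p under 0.05 (exact permutation). The values in the rows of Tspan2 (2.64 to 5.10) and Cd9 (1.39 to 2.46) are all starred, and no other pair is.

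The genes most like each member were sought by the root mean square difference between centred log2 profiles over the 9 arrays of type A, with the 3 nearest genes named. Nearest to Tspan2 (1368105_at) were Prkcz, an atypical protein kinase C, at 0.36, Dpysl4, a collapsin response mediator protein, at 0.37, and Cntn1, an adhesion molecule that binds paranodal partners, at 0.37. Their O4+ minus A2B5+ differences were 4.28, 4.12 and 3.80. Nearest to Cd9 were Asrgl1 (0.25), an asparaginase, Tpm1 (0.28), a tropomyosin, and Fam89a (0.28). Cd63 was followed most closely by Rpl11 (0.056), a ribosomal protein, Med6 (0.070), a Mediator subunit, and Lamp2 (0.074), a lysosomal membrane protein. Cd81 lay nearest to Nr2f2 (0.050), Tnpo2 (0.058) and Tpp2 (0.066), and Cd151 to Idh3b (0.093), Rpl7 (0.10) and Eno1 (0.11). Flat profiles lie close to many others, so these small distances are a weaker sign of likeness than those of Tspan2. The nearest to Cd82 were Emp1, a membrane protein of the Pmp22 family, at 0.20, Rasd1, a glucocorticoid-induced Ras-like protein, at 0.21, and Klf4, a transcription factor, at 0.22. Klf4 read 2, 1.907 and 2.105 in A2B5+ replicates 1, 2 and 5, and 1 and 1.083 in replicates 3 and 4. Rasd1 read 1.935, 1.98 and 2.773 against 0.944 and 0.859 in the same arrays, and Emp1 2.054, 1.595 and 2.245 against 0.874 and 1. These genes were chosen for their likeness to Cd82 on these same arrays. Their shared split follows from that choice and is no separate support for the split of Cd82.

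More of the other tetraspanins were lower than higher in O4+ cells. Of 26 listed genes 18 were tested, with 17 probe sets on array A, of which 3 were higher, 9 lower and 5 not called, and a median difference of -0.88 against 0.26 for all tested probe sets. Of all tested probe sets on array A, 32.5% were higher and 14.7% lower. Centring gave 3 higher and 10 lower, against 18.6% and 17.9% of all tested probe sets, and quantile normalization gave 3 and 8. The rises were Tspan15 (3.07 ± 0.38, adjusted p = 1.6e-04 by limma) and Tspan17 (0.90 ± 0.20), both escorts of the sheddase Adam10, and Tspan31 (0.71 ± 0.15). Tspan15 ranged from 0.828 to 1 in A2B5+ cells and from 2.784 to 12.71 in O4+ cells, so its size varied widely among O4+ arrays. The largest falls were those of Tspan8 (-1.96 ± 0.30), known from epithelia, Cd37 (-1.83 ± 0.35), a tetraspanin of leukocytes, and Tspan18 (-1.50 ± 0.47), known from endothelium. The call of Tspan18 ended with quantile normalization (adjusted p = 0.051 by limma). Cd53, also a leukocyte tetraspanin and chosen here after its value was seen, fell by 1.27 ± 0.38. The remaining lower calls on array A were Tspan4 (-1.08 ± 0.33), Tspan9 (-0.99 ± 0.13), Tspan12 (-0.99 ± 0.22) and both probe sets of Tspan5. The falls of this list stood beside those of the microglia and endothelial markers given above, whose part in them was not tested. Tspan3, known as a partner of Cldn11 in oligodendrocytes and also chosen after its value was seen, differed by 0.32 ± 0.14 (adjusted p = 0.075 by limma). On array B, where 9.93% of tested probe sets were higher and 13.8% lower, Tspan13 fell by 0.99 ± 0.15, and Upk1b differed by 0.10 ± 0.07 (adjusted p = 0.34 by limma).

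**Figure D4:**
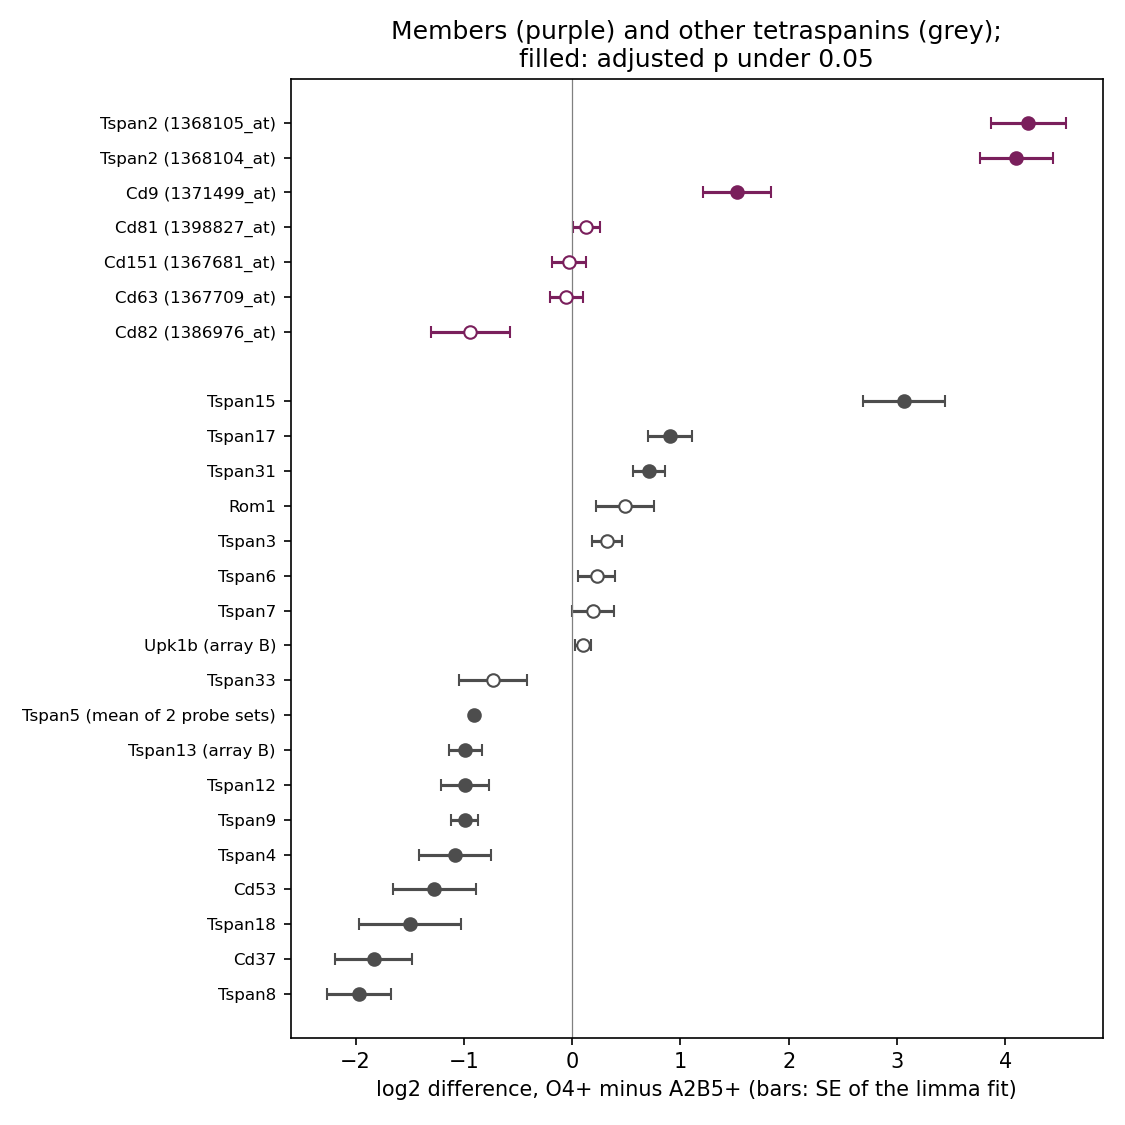
Log2 difference, O4+ minus A2B5+ (horizontal axis), with the SE of the limma fit, for the 7 member probe sets (purple) and 18 other tetraspanin genes (grey); filled points have an adjusted p under 0.05, and the mean of the Tspan5 probe sets has no bar. Tspan2, at 4.10 and 4.21, lies furthest right, followed by Tspan15 at 3.07, and Tspan8 lies furthest left at -1.96.

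Proteins that tetraspanins hold in the membrane moved both ways. Of 32 probe sets for 25 such genes on array A, 10 were higher, 7 lower and 15 not called (9 and 8 after centring), with a median difference of -0.01. Among all tested probe sets on array A, 32.5% were higher and 14.7% lower (18.6% and 17.9% after centring), so 10 of 32 higher is near the share of the array. The largest rise by gene was that of Cldn11, the claudin of myelin tight junctions, which is also on the list of oligodendrocyte markers. Its probe set 1376711_at ranged from 0.756 to 1 in A2B5+ cells and from 3.815 to 4.426 in O4+ cells, a difference of 2.27. It met the filter through its O4+ arrays and 1 A2B5+ array at a ratio of 1, as Tspan2 and Cd9 did. The other Cldn11 probe set ranged from 0.333 to 0.392 in A2B5+ cells and from 3.195 to 16.83 in O4+ cells, a called difference of 4.61. This second probe set passed the filter only through its O4+ arrays, where it was high, so its call is no separate support for a rise. Its median ratio was below 1, unlike that of the other Cldn11 probe set and of the members, so the size of its difference is less certain. It is counted among the 10 higher. Igsf8, the immunoglobulin-type protein that binds Cd9 and Cd81 directly, ranged from 0.629 to 1 in A2B5+ cells and from 2.938 to 3.733 in O4+ cells. Its rise was 1.97 ± 0.16 (adjusted p = 1.2e-05 by limma). Ptgfrn, the related partner of the same tetraspanins and chosen after its value was seen, fell by 1.04 ± 0.20 (adjusted p = 0.0020 by limma). Prkca, a protein kinase C that tetraspanins link to integrins, rose by 1.65 ± 0.24. The largest falls were those of Vcam1, an adhesion receptor (-1.84 ± 0.26), Ezr, the linker ezrin between membrane and actin (-1.42 ± 0.18), and the integrin subunit Itgb5 (-1.42 as the mean of 2 probe sets). On array B the 2 probe sets of Itgav, an integrin subunit, differed by -0.97 and -0.43 and were not called (adjusted p = 0.055 and 0.28 by limma).

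Genes of the vesicles and lysosomes in which Cd63 travels rose in some cases and fell in others. Of 28 probe sets for 24 genes on array A, 8 were higher, 6 lower and 14 not called, against 32.5% higher and 14.7% lower of all tested probe sets. Centring turned the balance to 5 higher and 8 lower, against 18.6% and 17.9%. Rises thus lay near the share of the array, and falls somewhat above it. Tmbim1, a membrane protein of lysosomes and endosomes, ranged from 0.554 to 1 in A2B5+ cells and from 4.961 to 8.141 in O4+ cells, and rose by 3.24 ± 0.21 (adjusted p = 2.4e-06 by limma). Scarb2, a lysosomal membrane receptor, rose by 1.00 ± 0.24, and Vps4a, the ATPase that recycles the budding machinery, by 0.87 ± 0.12. Smpd3, the neutral sphingomyelinase that drives release of vesicles with myelin proteolipid, fell from ratios of 1 to 2.065 in A2B5+ cells to 0.203 to 0.363 in O4+ cells. Its difference was -2.58 ± 0.26 (adjusted p = 4.4e-05 by limma). Anxa5, a lipid-binding annexin, fell by 0.91 ± 0.28, and on array B 1 of 2 probe sets of Rab27a, a GTPase of vesicle docking, fell by 1.99 (adjusted p = 0.0098 by limma) while the other differed by -0.14 (adjusted p = 0.67 by limma).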

How the data were processed

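RNA of sorted A2B5+ and O4+ cells, labelled with biotin, was measured on 2 array types. The deposited values are linear ratios per probe set. GCRMA, which corrects the background of Affymetrix probes and summarises them, is listed in the submitters' processing notes with no version. The step from its output to ratios is not described there or in the labels. On array A, 12995 of 15923 probe sets, all members included, have a median ratio of exactly 1, and the rest have one below 1. Levels on a common scale cannot be recovered from such ratios. Samples were grouped by their titles, since the source label of array B samples names only the tissue.

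Log2 ratios were used without offset or further scaling. Tests were run on probe sets with 4 or more of 9 arrays at a ratio of 1 or above, and 57 control probe sets per type were left out. A median ratio of exactly 1 puts 5 of 9 arrays at 1 or above, so such probe sets passed whichever group was high. Those with every O4+ array above every A2B5+ array passed through the 4 O4+ arrays and 1 A2B5+ array. This kept 13098 on array A and 11136 on array B. Genes were named from the platform annotation: 12789 and 7570 probe sets had 1 symbol, 312 and 100 several, 2822 and 7663 none. Each type was fitted in limma 3.58.1 (R 4.3.3; lmFit, eBayes, two-sided), with Benjamini-Hochberg adjustment over all its tested probe sets. Errors are standard errors of that fit unless marked SD. On simulated data for the O4+ minus A2B5+ comparison on array A (13098 probe sets), 61% of 100 log2 changes of size 1 and 92% of 100 of size 2 were recovered. No other probe sets were changed there, whereas 4259 were called higher and 1929 lower in the data. The adjusted threshold depends on that share, so these rates do not give the recovery in the data themselves. The number of arrays limits the precision. The p-values rest on the spread between replicates, in which differences between litters, sorts and arrays are not separated.

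The members and gene lists were chosen with earlier results of these data known. By rule, the text gives all member probe sets, the 3 largest called rises and falls of each list of tetraspanins, partners and vesicle genes (mean over a gene's tested probe sets, array A before B), and the 3 genes most like each member. No sequence of a member's protein was used here.

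Replicate numbers occur in both populations, but the labels do not say that they mark shared litters. Alternatives were centred arrays, quantile normalization, other filters, array weights, robust regression, a replicate block and leaving out each replicate. No replicate of a population shared more than 1.38% of identical values with another.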

Additional observations from a re-analysis of the deposited data

Results flagged for a closer look

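The ratio of Cd63 in O4+ replicate 2, 1.343, stood apart from the other 3 O4+ arrays (0.924 to 0.975): its gap to the nearest of them was 0.856 of the group's whole range on the log2 scale, above Dixon's critical value of 0.829 for 4 samples. Chance flags about 1 in 20 such groups, and 14 groups of member values were checked. The same array was the highest for Cd151 (1.173) and the lowest for both Tspan2 probe sets, Cd9 and Cd81 among O4+ arrays. It also had the highest median log2 ratio of the 9 arrays, 0.16.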

How the results depend on the processing

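Tspan2 and Cd9 were called higher under all 16 alternatives, with differences between 3.19 and 4.36 (1368104_at), 3.11 and 4.44 (1368105_at), and 1.35 and 1.77 (Cd9). Cd63, Cd81 and Cd151 were not called under any of the 16. Cd81 came closest, at 0.23 with array weights (adjusted p = 0.0501 by limma). Cd82 stayed below 0 under all 16, from -1.17 to -0.43, and crossed the threshold under 4 of them: with arrays centred it was -1.11, making 1 lower call among the members, and leaving out single replicates gave -1.15 to -0.71 and 0 to 1 lower calls. The number of probe sets called higher on array A was 4259, 2439 with arrays centred, 2131 after quantile normalization and 7128 with no filter; on array B it was 1106, and 1852 with robust regression. The cause was not tested, except that the first 2 settings remove the shift between array medians. Pairs of members called ranged from 0 to 9 when a replicate was left out; fewer arrays raise the smallest p. With the replicate number as a block, Tspan2 differed by 3.86 and 3.94, Cd9 by 1.48 and Cd82 by -0.77, and no member's call changed. Deviations of same-numbered arrays correlated at 0.02 to 0.31 on array A and -0.20 to 0.24 on array B, and not every O4+ array correlated best with its own number, so the numbers were not taken to pair the samples, which the labels leave unstated. What this number of arrays resolves differs by gene: the standard error was 0.13 for Cd81 and 0.37 for Cd82.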

Other observations

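Tetraspanins that escort the sheddase Adam10 to the cell surface, a subfamily picked out after the values were seen, did not move as one. Tspan15 and Tspan17 rose in O4+ cells, as given above, both probe sets of Tspan5 fell (-0.94 and -0.88, adjusted p = 0.014 or less by limma), and Tspan33 differed by -0.73 ± 0.31 (adjusted p = 0.073 by limma; 0.049 with arrays centred). Adam10 itself differed by 0.17 ± 0.15 (adjusted p = 0.38 by limma), and the related sheddase Adam17 by -0.16 ± 0.14 (adjusted p = 0.36 by limma).

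The linkers that tie tetraspanin clusters to actin, also picked out after the values were seen, split in the same fit. Rdx, which encodes radixin, rose on both of its probe sets (1.22 and 1.42), while Ezr fell by 1.42 and Msn, which encodes moesin, by 1.19 ± 0.21 (adjusted p = 0.0015 by limma). Among laminin-binding integrin subunits, Itgb4 rose by 1.24 ± 0.27 (adjusted p = 0.0044 by limma), and the 2 probe sets of Itga6 (-0.05 and 0.45) and of Itgb1 (-0.29 and 0.03) were not called. Neither were Itga3 (0.16 ± 0.15) and the 2 probe sets of Itga7 (-0.38 and -0.26).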
